A study of Mus musculus with 12 samples.

Results

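Hspd1 and Hspe1 encode the chaperonin of the mitochondrial matrix, and their transcripts were followed here in myelinating oligodendrocytes sorted from mouse brain. The genes were taken from the deposited counts by their Entrez Gene identifiers, which gave 2 genes of the 2398 in the table. The pair was selected on its counts in KO and WT, with the lower Hspe1 level of KO already known, so the genotype difference of both genes is given as a description, without a test. Cells were sorted as positive for the Ndrg1-EGFP reporter, which marks oligodendrocytes that make myelin, and negative for propidium iodide, which stains dead cells. KO denotes CnpCre/+;Lmnafl/fl mice, in which Cre is made from 1 Cnp allele, and WT denotes Cnp+/+;Lmnafl/fl mice. Both groups carry the reporter and floxed Lmna on the C57BL/6 strain, at postnatal day 60 in the sample characteristics and 8 weeks in the growth protocol. Lmna encodes the A-type lamins, and Cnp is a gene of the oligodendrocyte lineage. KO mice therefore also carry Cre and 1 fewer intact copy of Cnp than WT mice. There were 3 biological replicates of each genotype, each with 2 libraries.

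Hspd1 (Hsp60) assembles into a barrel that encloses newly imported or unfolded proteins of the mitochondrial matrix, and Hspe1 (Hsp10) is the lid that closes it while the protein folds. Both are nuclear genes whose products enter mitochondria after translation, and both are classical targets of the heat shock response. In mammals the genes lie head to head and share a promoter, which is why they are usually thought of as a co-regulated unit.

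In mm10, Hspd1 lies on the minus strand of chromosome 1 from 55077833 to 55088243 and Hspe1 on the plus strand from 55088148 to 55091317, in the RefSeq records for GRCm38.p6. RefSeq gives Hspd1 a pair of start sites, at 55087932 and 55088243, and Hspe1 a start at 55088148. The stretch between the starts at 55087932 and 55088148 is shown because it lies between the genes by these starts. It is the plus strand of chr1:55087933-55088147, from RefSeq's GRCm38.p6 sequence, with matches to the heat shock element, to the C/EBP-CHOP core and to the GC box in capitals.
Stretch between the RefSeq starts: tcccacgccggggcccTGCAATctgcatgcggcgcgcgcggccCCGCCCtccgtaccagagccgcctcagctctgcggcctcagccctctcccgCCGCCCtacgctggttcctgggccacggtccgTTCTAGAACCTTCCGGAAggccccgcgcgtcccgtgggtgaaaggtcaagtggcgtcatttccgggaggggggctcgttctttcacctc

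This stretch is 215 bases long and 70.2% G or C. Motifs were searched on both strands. The heat shock element of 3 units, TTCNNGAANNTTC, had 2 overlapping matches, TTCTAGAACCTTC from 55088059 to 55088071 and GAACCTTCCGGAA, whose reverse complement fits the motif, from 55088064 to 55088076. They lie within one run of capitals, 127 bases from the Hspd1 start at 55087932, and the match nearer to Hspe1 ends 72 bases before the Hspe1 start. This element occurred in 198 of 32851 RefSeq promoter windows of 250 bases before to 50 after a start, or 0.603%. The letters TGCAAT, the core of the element bound by C/EBP and CHOP, had 1 match and occurred in 8.40% of the windows. The GC box GGGCGG had 2 matches, both on the opposite strand, and occurred in 35.7% of the windows. CCAAT and GCGCNNGCGC, searched for NRF1, had 0 matches between the starts, which is a shorter stretch than a window. In the 3 windows of the pair's own starts, GCGCNNGCGC occurred in 3 and CCAAT in 1, beside 6.23% and 37.4% of all windows. A match is a sequence only and shows no binding in these cells.

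GENCODE M21 places the full-length Hspd1 transcript's start at 55088024, so that the TGCAAT match and the GC box at 55087976 lie inside that transcript's exon, and gives shorter Hspd1 transcripts a start at 55088243, inside the transcript of Hspe1. Reads from the overlap cannot be assigned to a gene without strand, and the sources used here do not say whether strand was used. Both genes also have processed pseudogenes elsewhere in the genome. Of the 725 windows of 50 bases, the read length, in the main Hspe1 transcript, 325 (44.8%) occur in another gene's transcript as well, 63 of them only in the overlapping Hspd1. In the main Hspd1 transcript it was 1063 of 2374 windows (44.8%). Apart from the pair itself, the other genes number 6 for Hspe1 and 9 for Hspd1, and 0 of these are in the table. How reads with several matches were counted is not given either, so the level of each gene is uncertain to that extent.

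The table held 2398 genes of chromosomes 1 and 10, with 3694551 to 6093336 counts per biological replicate. These totals are those of the table and not the depth of the libraries. Lmna and Cnp are not analysed here, so the recombination was not checked. Of 18 markers of mature oligodendrocytes 2 were in the table, Adamts4 and Nfasc, and their summed level ran from 14778 to 17091 CPM in KO and from 10317 to 11898 CPM in WT. CPM, counts per 1e+06 counts of this table after TMM scaling, is the unit of level throughout. The libraries of a replicate were summed, since they differed by little more than sampling noise over all genes, with a chi-square of 1.00 to 1.06 per degree of freedom. For Hspd1 and Hspe1, Fisher's exact test between the libraries of a replicate gave adjusted p from 0.337 to 0.963 over 12 tests.

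Hspe1, the lid, was the member that stood apart by genotype. Its level was 541, 494 and 521 CPM in KO replicates 1 to 3, against 699, 644 and 652 CPM in WT replicates 1 to 3. All KO replicates lay below all WT replicates. The means were 519 ± 23.3 CPM in KO and 665 ± 29.8 CPM in WT (SD, n = 3 each), and the log2 fold change, KO over WT, was -0.36 ± 0.10 (SE), or 0.779-fold. Neither member was among the genes called by edgeR's quasi-likelihood test at an adjusted p under 0.05, which called 0 of 1484 genes tested (0%). An unadjusted p under 0.05 was found in 59 genes, fewer than 1484 such tests would give on average with no difference in any gene. DESeq2 called 7 of 1481 genes (0.473%), 0 of them members, and limma-voom called 0. The replicates of KO and WT did not overlap in 126 of the 1484 genes (8.49%), and 60 (4.04%) lay lower in KO. Without any difference, 3 against 3 replicates separate fully with a probability of 0.1, so 8.49% is no more than that. In these bulk samples fewer cells of a type and less RNA per cell cannot be told apart. The summed level of Adamts4 and Nfasc given above also separated the genotypes, in the other direction, and its part in the Hspe1 difference was not tested.

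Hspd1, the barrel, overlapped between genotypes. Its level was 2429, 1784 and 1761 CPM in KO replicates 1 to 3, against 1858, 2500 and 1853 CPM in WT replicates 1 to 3. One replicate of each genotype, KO replicate 1 and WT replicate 2, stood above 4 replicates that lay close together. They were also the replicates with the fewest counts in the table, 3694551 in KO replicate 1 and 4155727 in WT replicate 2, and the part of depth in the level of Hspd1 was not tested. The means were 1991 ± 379 CPM in KO and 2070 ± 372 CPM in WT (SD, n = 3 each), and the log2 fold change was -0.06 ± 0.17 (SE). Its value was -0.23 without KO replicate 1 and 0.11 without WT replicate 2, and it was also above 0 without KO replicate 2 (0.019) and without KO replicate 3 (0.024), so its sign was not stable. That of Hspe1 stayed between -0.39 and -0.32.

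**Figure D1:**
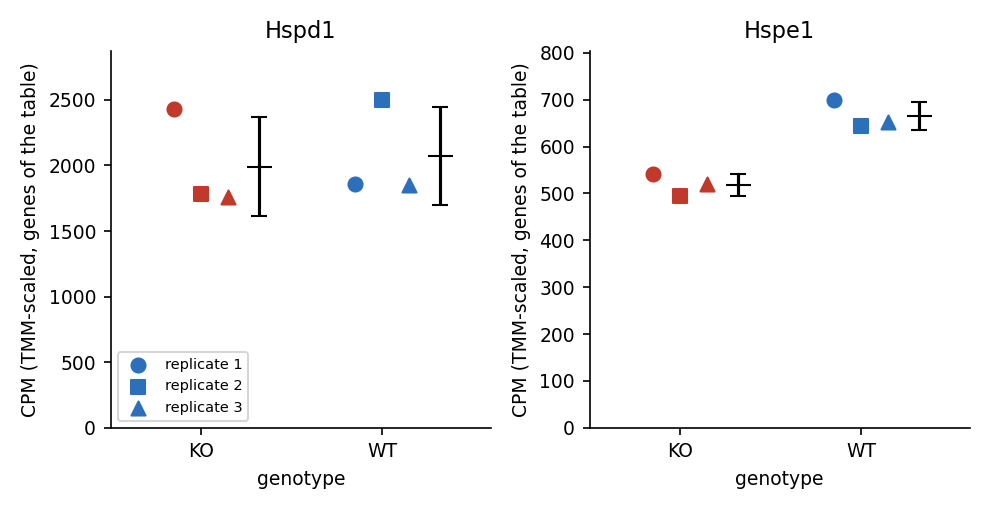
Level of Hspd1 and Hspe1 in CPM (vertical axes, starting at 0) in each biological replicate of KO and WT, with marker shapes for replicate numbers and a black line for the mean ± SD of 3 replicates. KO replicate 1 and WT replicate 2 stand high for Hspd1, at 2429 and 2500 CPM, while the Hspe1 values of KO lie below those of WT.

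The members also differed in how much they varied within a genotype. The SD of log2 CPM within genotypes was 0.26 for Hspd1 and 0.064 for Hspe1. Among 835 genes with a mean of at least 100 CPM the median was 0.17. A smaller SD was found in 78.9% of these genes for Hspd1 and in 2.51% for Hspe1. Hspe1 was thus among the steadiest of these genes within genotypes. The pair was chosen on these same counts with the Hspe1 difference known, and a small spread helps such a difference to stand out. This rank is therefore a description. The highest replicate exceeded the lowest 1.379-fold in KO and 1.349-fold in WT for Hspd1, and 1.094-fold in KO and 1.086-fold in WT for Hspe1. When counts were scaled by the total of the table instead, Hspe1 stood at 514, 513 and 514 CPM in KO and at 709, 624 and 683 CPM in WT.

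Levels of the members can be compared only per length. Divided by the length of the longest protein-coding GENCODE transcript, the mean over the 6 replicates was 838 CPM per kb for Hspd1 and 765 CPM per kb for Hspe1. They ranked 101 and 110 of 1402 genes with a length.

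The ratio of Hspe1 counts to Hspd1 counts in a replicate does not depend on any scaling between libraries. It was 0.223, 0.277 and 0.296 in KO replicates 1 to 3, against 0.376, 0.258 and 0.352 in WT replicates 1 to 3. The ratio of WT replicate 2 lay within the KO range, so the genotypes overlapped. The exact binomial 95% interval, which covers counting error only, was 0.212 to 0.234 in KO replicate 1 and 0.362 to 0.391 in WT replicate 1, the lowest and the highest ratio. The mean was 0.265 ± 0.038 in KO and 0.329 ± 0.063 in WT (SD, n = 3 each), and the difference of mean log2 ratios, KO minus WT, was -0.30. It was -0.18 without KO replicate 1, -0.19 without WT replicate 1 and -0.47 without WT replicate 2. Per kb of transcript the ratio was 0.697, 0.867 and 0.925 in KO and 1.178, 0.807 and 1.102 in WT. The libraries of a replicate gave 0.226 and 0.220 in KO replicate 1, and 0.262 and 0.253 in WT replicate 2. They lay widest apart in KO replicate 3, at 0.306 and 0.286, a wider gap than that between KO replicates 2 and 3 themselves.

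**Figure D2:**
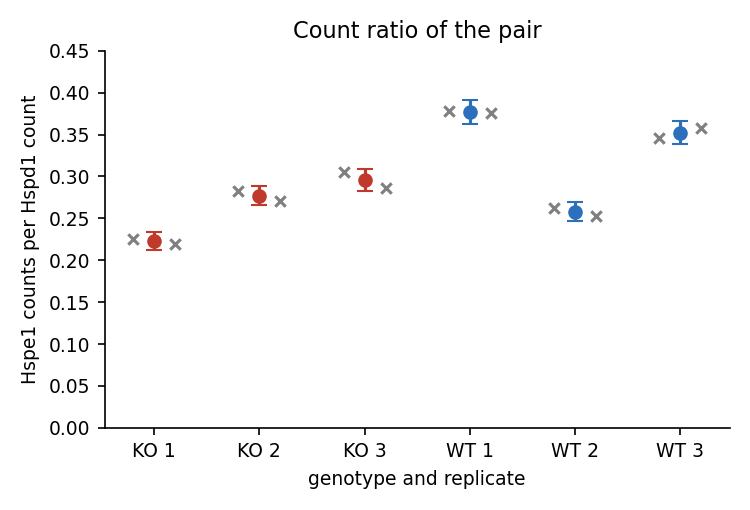
Hspe1 counts per Hspd1 count (vertical axis, starting at 0) in each biological replicate, with the exact binomial 95% interval, and grey crosses for its 2 libraries. KO replicate 1, at 0.223, and WT replicate 2, at 0.258, have the lowest ratio of their genotype.

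Whether the neighbours vary together was asked on log2 CPM after removing the genotype means. Over the 6 replicates Pearson's r was 0.12 (exact permutation within genotypes, two-sided p = 0.806) and Spearman's rho was 0.20 (exact permutation p = 0.778). With counts scaled by the total of the table r turned to -0.65 (exact permutation p = 0.139), so its sign depended on the scaling. Without KO replicate 1 and WT replicate 2, the replicates farthest from the median of Hspd1, r was -0.024 over 4 replicates. With genotype means kept, r was 0.17 over 6 replicates and 0.94 over those 4, which are 2 of each genotype and lie apart by genotype in Hspe1. In KO replicate 1 Hspd1 stood 0.30 above the KO mean on the log2 scale and Hspe1 0.061 above it. In WT replicate 2 Hspd1 stood 0.29 above the WT mean and the deviation of Hspe1 was -0.045. No shared movement of the pair beyond genotype was detectable with 6 replicates. The replicate differences themselves recurred in separate libraries. Deviations in library 1 and library 2 correlated at 0.99 for Hspd1 and at 0.84 for Hspe1 across the 6 replicates, values that share the RNA of each replicate and are given as a description.

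**Figure D3:**
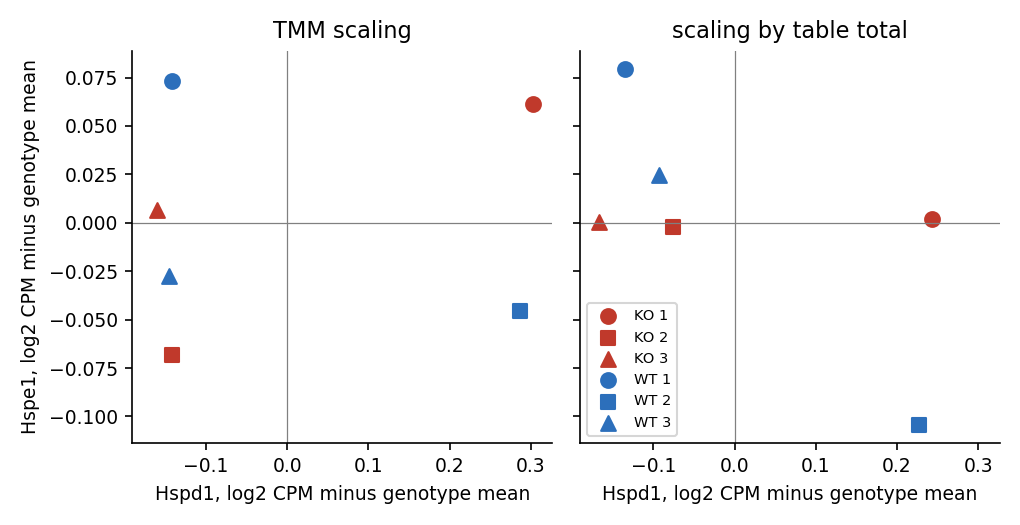
Deviation of Hspd1 (horizontal axis) and Hspe1 (vertical axis) from the genotype mean, in log2 CPM, for each replicate under TMM scaling and under scaling by the total of the table. KO replicate 1 and WT replicate 2 lie to the right in both panels, and the Hspe1 deviation under TMM is 0.061 in KO replicate 1 and -0.045 in WT replicate 2.

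Other gene pairs that start head to head gave a range around this value. There were 104 other pairs of tested genes on opposite strands whose starts lay within 1000 bases, with a median r of 0.27 and a range from -0.92 to 0.95. The r of 0.12 for Hspd1 and Hspe1 was higher than that of 39 of them. Among 44 convergent neighbours the median was -0.061, and among 27 tandem neighbours it was 0.15. With both genes at a mean of at least 50 CPM the medians were 0.21 over 62 divergent, 0.17 over 25 convergent and 0.078 over 11 tandem pairs. These values share the same 6 replicates and are a description.

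The genes most like each member were ranked by r of log2 CPM over the 6 replicates among 959 other genes with a mean of at least 50 CPM. For Hspd1 they were Tor1aip1, which encodes a torsin activator of the inner nuclear membrane (r = 0.96), Fbxo7 (0.96), Ccdc181 (0.95), Creg1 (0.95) and Timp3, an inhibitor of metalloproteinases (0.95). Tor1aip1 stood at 480, 411 and 409 CPM in KO and at 423, 536 and 426 CPM in WT, again highest in KO replicate 1 and WT replicate 2. For Hspe1 they were Ginm1 (r = 0.96), Ppa1, a pyrophosphatase (0.95), Hdac4, a histone deacetylase (0.95), Snrpe, a core protein of spliceosomal particles (0.95), and Dnpep, an aminopeptidase (0.95). Snrpe stood at 269, 218 and 235 CPM in KO and at 346, 305 and 284 CPM in WT. Hspe1 ranked 406 in likeness to Hspd1, and Hspd1 ranked 411 in likeness to Hspe1.

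With genotype means removed, the genes closest to Hspd1 included Glul, glutamine synthetase (r = 0.99), 1700066M21Rik (0.99), Dner (0.99) and Timp3 (0.99), besides an identifier with no matched symbol. Glul stood at 21743, 14671 and 14759 CPM in KO and at 12794, 20356 and 12460 CPM in WT. Those closest to Hspe1 were Cry1, a repressor of the circadian clock (r = 0.996), Ginm1 (0.97), Cited2 (0.96), Agap1 (0.95) and Retreg2 (0.95). These values rest on the same 6 replicates and are a description, with no p.

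The replicates with the most Hspd1 also had the most of some genes listed with the chaperones of the endoplasmic reticulum. Hsp90b1, the Hsp90 of that compartment, stood at 8772, 5789 and 7077 CPM in KO and at 6269, 8677 and 6687 CPM in WT, with a log2 fold change of 0.00028 ± 0.18 (SE). KO replicate 1 and WT replicate 2 were both the highest of their genotype in 3 of 6 tested genes of the endoplasmic reticulum list. These were Hsp90b1, Sec63 and Tor1aip1, the last already given above as the gene most like Hspd1. The same held in 2 of 6 cytosolic chaperone and heat shock genes and in 14.8% of the 1482 genes tested besides the pair. It held in 0 of 3 mitochondrial chaperone genes, 0 of 7 mitochondrial ribosome genes and 0 of 5 matrix dehydrogenase genes. The stress regulator, import channel and protease lists gave 0 of 5, 0 of 2 and 0 of 1. KO replicate 1 and WT replicate 2 were both the lowest in 2 of 5 genes of the mitochondrial stress regulator list, Atf3 and Foxo3. They were also both the lowest in 1 of 3 mitochondrial chaperone genes, Sdhaf4, and in 16.0% of all genes. Over all genes tested, the deviations of these replicates from their genotype means correlated at 0.35. Foxo3 had a low level, and its KO values lay close together, at 14.8, 15.0 and 15.9 CPM, beside 17.5, 8.69 and 18.2 CPM in WT. Atf3, a stress-induced transcription factor, stood at 37.0, 208 and 99.3 CPM in KO and at 121, 32.8 and 241 CPM in WT. The summed level of the 5 markers of mural cells and fibroblasts in the table was 639, 338 and 250 CPM in KO replicates 1 to 3 and 356, 475 and 83.5 CPM in WT replicates 1 to 3. It was thus also highest in these replicates. Fn1, the most abundant of these markers, stood at 330 CPM in KO replicate 1 and 196 CPM in WT replicate 2, the highest of each genotype. Col3a1, another of them, was higher in WT replicate 1 (121 CPM) than in WT replicate 2 (100 CPM). The part of these markers in the level of Hspd1 was not tested.

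Markers of other cell types gave these levels. The 2 astrocyte markers summed to 923, 628 and 435 CPM in KO replicates 1 to 3. In WT replicates 1 to 3 they summed to 661, 352 and 271 CPM, so WT replicate 1 was the highest. The 2 microglia and macrophage markers summed to 47.0 to 242 CPM in KO and 41.5 to 85.5 CPM in WT. The 2 progenitor markers summed to 12.2 to 95.6 CPM in KO and 0.497 to 36.5 CPM in WT. None of 8 endothelial markers was in the table. The 2 neuronal markers summed to 10.5 to 46.8 CPM in KO and 7.03 to 247 CPM in WT. The only choroid plexus marker in the table, Kcnj13, ran from 1.58 to 16.2 CPM in KO and from 4.97 to 131 CPM in WT. Transcript length was also compared, since Hspe1 is short, a comparison chosen after the values were seen. The 51 genes with a transcript of at most 1 kb had log2 fold changes with a median of -0.065, and in the 365 genes with a transcript of at least 4 kb the median was -0.020.

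Of the genes around the pair on chromosome 1, Hspe1 had the lowest log2 fold change. Its choice with the lower KO level known made this likely, so it is a description. The table held 16 genes whose start lay within 1 Mb of that of Hspd1, of which 14 were tested and 0 were called. The 12 tested besides the pair had log2 fold changes with a median of -0.083 and a range from -0.19 to 0.24, and 9 of them were below 0. The median of all genes tested was -0.0064. The start of Mob4 lies 43.0 kb beyond that of Hspd1 on the side of Hspe1. Mob4 stood at 586 ± 45.4 CPM in KO and 650 ± 48.5 CPM in WT (SD, n = 3 each). Its log2 fold change was -0.15 ± 0.11 (SE). Coq10b, which binds coenzyme Q in mitochondria, lies on the other side and stood at 163 ± 12.3 CPM in KO and 163 ± 14.4 CPM in WT. Sf3b1, a splicing factor next to Coq10b, stood at 2561 ± 58.8 CPM in KO and 2703 ± 402 CPM in WT. Mars2, the mitochondrial methionyl-tRNA synthetase, stood at 208 ± 10.7 CPM in KO and 198 ± 7.82 CPM in WT. Rftn2 and Ankrd44, the other tested genes whose starts lay within 200 kb, had log2 fold changes of -0.088 ± 0.11 and -0.010 ± 0.17 (SE).

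**Figure D4:**
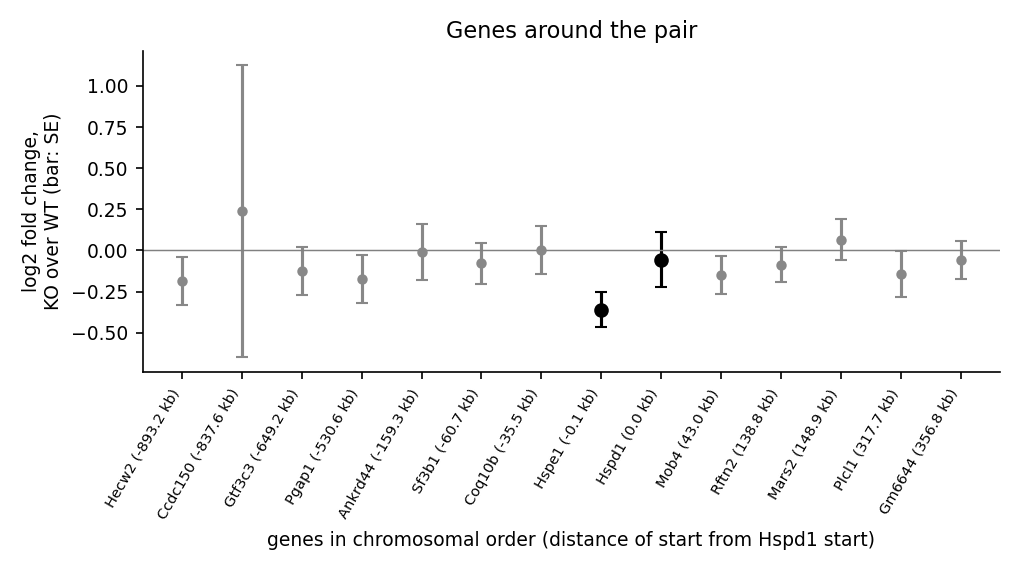
Log2 fold change, KO over WT, with its SE (vertical axis) for the 14 tested genes whose start lies within 1 Mb of that of Hspd1, in chromosomal order with the distance between starts in kb. Hspe1, chosen with its lower KO level known, is the lowest point, at -0.36. The 12 genes besides the pair lie between -0.19 and 0.24.

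Partners of the chaperonin in mitochondrial protein folding were sparse in the table. Of 42 further genes of mitochondrial chaperones and assembly factors 3 were in the table and tested, and 0 were called. Sdhaf4, an assembly factor of succinate dehydrogenase, stood at 101, 125 and 121 CPM in KO and at 153, 138 and 147 CPM in WT. Its log2 fold change was -0.34 ± 0.16 (SE). It was the 1 gene of these 3 with all KO replicates below all WT replicates, beside 4.04% of all genes tested. Timm13, a chaperone of the intermembrane space, stood at 1249 ± 41.0 CPM in KO and 1246 ± 171 CPM in WT, and Bcs1l, which assembles complex III, at 202 ± 34.4 CPM in KO and 218 ± 21.7 CPM in WT (SD, n = 3 each). In the import channels 2 of 22 genes were tested and 0 called. Timm17a, a subunit of the inner membrane channel, stood at 937, 920 and 928 CPM in KO and at 1299, 1049 and 971 CPM in WT. It was the 1 gene of these 2 with all KO replicates below all WT replicates, beside the same 4.04%. Tomm40l, a relative of the outer membrane pore, stood at 597 ± 34.7 CPM in KO and 576 ± 51.8 CPM in WT. The only gene of the protease list tested was Lactb2, at 132 ± 13.4 CPM in KO and 132 ± 18.8 CPM in WT.

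The products that the chaperonin helps to fold reside in the matrix, and so do the mitochondrial ribosomes. All 7 tested genes of the mitochondrial ribosome had a log2 fold change below 0, and 0 were called. Their median was -0.15, beside -0.0064 over all genes tested. The list was chosen with earlier results of these data known, so this is a description. The direction below 0 held in each of the 7 genes under the other scalings, which use the same replicates. In 3 of the 7 all KO replicates lay below all WT replicates, beside 4.04% of all genes tested. Mrpl15, of the large subunit, stood at 443 ± 34.1 CPM in KO and 524 ± 36.2 CPM in WT, Mrpl42 at 574 ± 14.6 CPM in KO and 665 ± 39.6 CPM in WT, Mrpl30 at 450 ± 28.6 CPM in KO and 500 ± 19.4 CPM in WT, and Mrps14, of the small subunit, at 451 ± 61.6 CPM in KO and 500 ± 40.3 CPM in WT (SD, n = 3 each). Of the matrix dehydrogenases and the citrate cycle 5 genes were tested and 0 called, with a median of -0.054. That median was -0.027 without KO replicate 2, -0.031 without WT replicate 2 and -0.094 without WT replicate 3. Sdhc, a membrane subunit of succinate dehydrogenase, stood at 1312 ± 37.9 CPM in KO and 1362 ± 82.3 CPM in WT, and Fh1, fumarase, at 598 ± 82.5 CPM in KO and 657 ± 33.9 CPM in WT. Acadl, an acyl-CoA dehydrogenase, stood at 1176 ± 43.7 CPM in KO and 1173 ± 160 CPM in WT, and Idh1, the cytosolic and peroxisomal isocitrate dehydrogenase, at 2567 ± 164 CPM in KO and 2598 ± 323 CPM in WT.

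Of 35 genes listed under regulators of the mitochondrial stress response 5 were tested and 0 called. These were Tfam, Tfb2m, Ddit4, Atf3 and Foxo3, with a median of -0.14, the value of Tfb2m. That median was -0.044 with limma-voom, -0.080 without a filter on low counts, -0.071 without WT replicate 3, -0.095 without KO replicate 1 and -0.22 without WT replicate 2. Tfam, which packages mitochondrial DNA, stood at 349 ± 33.3 CPM in KO and 354 ± 29.9 CPM in WT. Tfb2m, a mitochondrial transcription factor, stood at 159 ± 10.1 CPM in KO and 176 ± 14.6 CPM in WT. Ddit4, an ATF4 target that restrains mTORC1, had a log2 fold change of -0.70 ± 0.41 (SE), with 85.2 to 164 CPM in KO and 122 to 340 CPM in WT.

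Cytosolic chaperones and heat shock genes had 6 of 69 members tested and 0 called, with a median log2 fold change of -0.016. Its sign was not stable, with -0.076 without KO replicate 1, 0.014 without KO replicate 2, 0.0145 without KO replicate 3, 0.0012 without WT replicate 1 and 0.0057 without WT replicate 2. Dnajb2, a co-chaperone of Hsp70, stood at 9787 ± 1424 CPM in KO and 9465 ± 437 CPM in WT, and Pfdn2, a subunit of prefoldin, at 675 ± 71.7 CPM in KO and 711 ± 30.3 CPM in WT (SD, n = 3 each). Dnajb12 stood at 572 ± 23.8 CPM in KO and 556 ± 63.7 CPM in WT, and Dnajc12 at 119.9 ± 22.0 CPM in KO and 108 ± 12.8 CPM in WT. The endoplasmic reticulum list had 6 tested genes, which hold Tor1aip1, Tor1aip2 and Atf6 beside chaperones. Their median was -0.037 and 0 were called. The median was 0.051 without KO replicate 2, 0.039 without WT replicate 2, -0.088 without KO replicate 1 and -0.074 without WT replicate 1. Besides Hsp90b1, Sec63, a translocation co-chaperone, stood at 907 ± 111 CPM in KO and 921 ± 61.4 CPM in WT, Tor1aip2 at 2031 ± 48.7 CPM in KO and 2106 ± 207 CPM in WT, and Uggt1, a sensor of misfolded glycoproteins, at 680 ± 52.8 CPM in KO and 635 ± 32.8 CPM in WT.

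**Figure D5:**
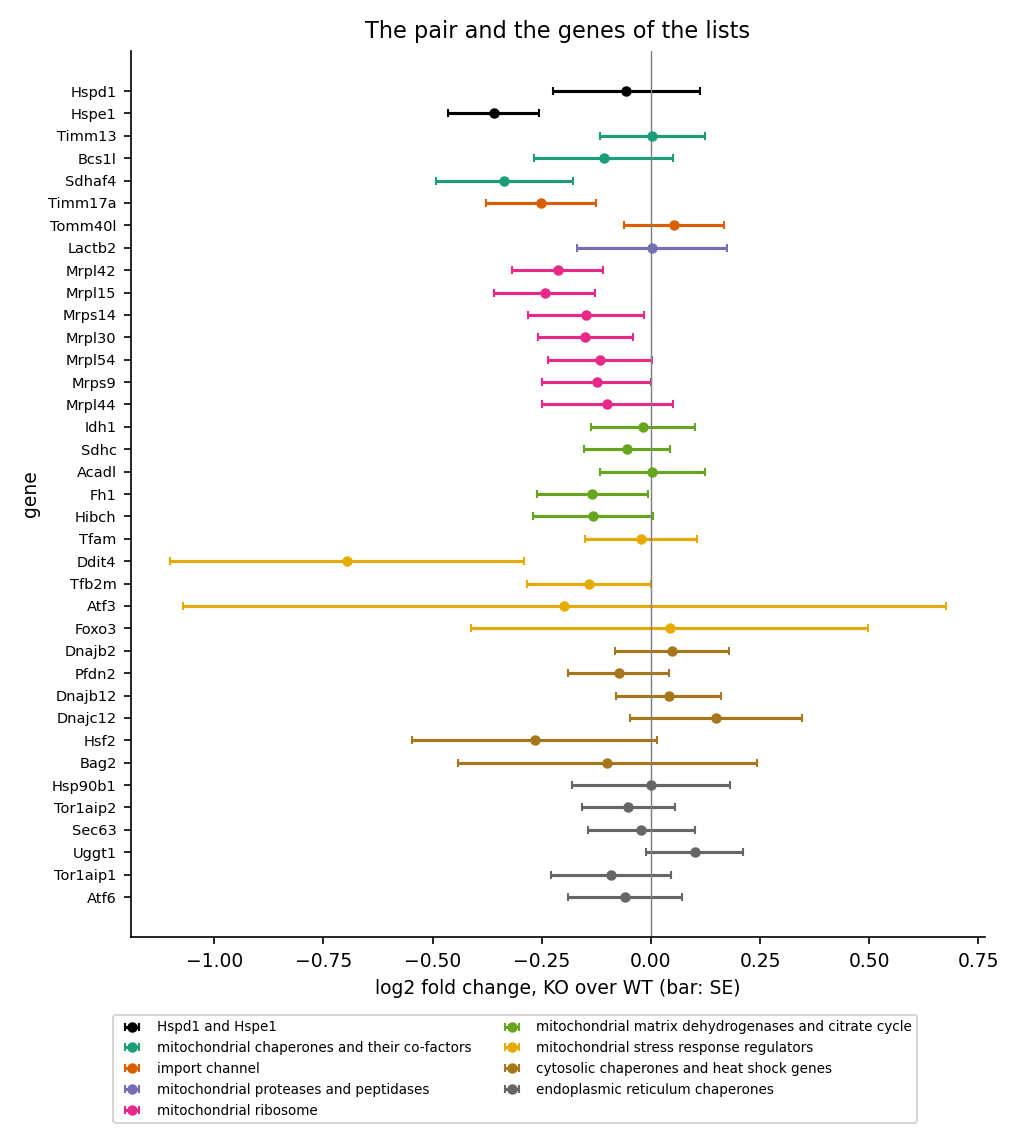
Log2 fold change, KO over WT, with its SE (horizontal axis) for Hspd1, Hspe1 and every tested gene of the 8 lists, coloured by list. Hspe1, at -0.36, and Sdhaf4, at -0.34, lie to the left among the chaperones, and 0 of the genes shown were called.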

How the data were processed

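The authors deposited unnormalized read counts for each gene in each library. The submitters' processing notes name HISAT2, featureCounts, fastp, FastQC, CASAVA 1.8.2 and SAMtools 1.4.1, besides DESeq2 and build mm10. Per the labels' protocols about 5.2 ng of RNA entered each library, read as single ends of 50 bases. Columns named Ctrl were taken as WT. One line that stopped early was left out, and 2226 of 2398 identifiers matched a RefSeq symbol.

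The libraries of a replicate were summed. The genotypes were compared in edgeR 4.0.16 (R 4.3.3) with TMM, filterByExpr and a robust quasi-likelihood fit, adjusted by Benjamini-Hochberg over 1484 genes. The SE is the log2 fold change over the square root of F. Log2 CPM used a prior count of 2. Fits were tried on simulated data whose changes were all larger than that of Hspe1, so that check does not cover a change of its size. Members and lists were chosen with earlier results of these data known. Genes named from lists are those called, otherwise the 4 with the highest mean CPM; neighbours lie within 200 kb, and the 5 most alike genes were taken for each member. Labels call the replicates biological but name no animals or litters, so p-values measure the spread between these samples.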

Additional observations from a re-analysis of the deposited data

How the results depend on the processing

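The counts of 0 genes higher and 0 lower in KO held in edgeR under other size factors, without a filter, in single libraries and in each of the 6 fits without a replicate (lowest and highest count 0), and in limma-voom, with 50 to 86 genes at an unadjusted p under 0.05 except 34 without KO replicate 2. With DESeq2 1.42.0 the counts became 6 higher and 1 lower, with 0 list genes called. The cause was not tested. The Hspd1 log2 fold change was above 0 without KO replicate 2 (0.019), KO replicate 3 (0.024) or WT replicate 2 (0.11), in a range from -0.23 to 0.11. The r of 0.12 between Hspd1 and Hspe1 reversed to -0.65 with total counts and to -0.10 with Hspd1 from library 1 and Hspe1 from library 2, and ran from -0.56 to 0.55 without 1 replicate, being -0.56 without KO replicate 1 and -0.29 without KO replicate 2. With genotype means kept it was 0.17. The Hspe1 fold change ran from -0.39 to -0.32 over 14 alternatives, and the log2 ratio difference of -0.30 from -0.47 without WT replicate 2 to -0.18 without KO replicate 1. With the replicate block edgeR called 0 higher and 0 lower, with 49 genes at an unadjusted p under 0.05, and log2 fold changes were -0.36 for Hspe1 and -0.058 for Hspd1. Same-numbered replicates had correlated deviations of -0.0032, -0.30 and 0.14, so the numbers are not taken as pairs. The highest value for any KO and WT replicate was 0.35, for KO replicate 1 and WT replicate 2, the replicates with the most Hspd1. Counts of 1899 to 11272 per replicate stand behind each member. List medians of the cytosolic and endoplasmic reticulum chaperones, the import channels and the protease list (Lactb2 alone) changed sign in at least 1 setting. Those of the mitochondrial ribosome, the matrix dehydrogenases, the stress regulators and the mitochondrial chaperones did not.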
